A study of Mus musculus with 8 samples.

Results

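T cell receptors whose beta chain uses the variable segment TRBV31, also called V beta 14, were followed in the injured brains of young and aged mice. The members were selected on the V gene call alone: every productive beta chain called TRBV31 in the 4 single-cell T cell receptor libraries entered. These were 120 of the 2920 cells with a beta chain, and 72 of the 1649 clonotypes with a beta chain. The segment itself had been picked for the way its share differed among the libraries, so its shares are given as a description and no test was made on them.

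The mice were C57BL/6 (B6) males, young (13 to 15 weeks) or aged (80 to 82 weeks) when a controlled cortical impact caused a traumatic brain injury (TBI). They were given 300 µg of an antibody against CD49d (aCD49d, clone PS/2), the integrin alpha chain that lets lymphocytes adhere to and cross vessel walls, or of its isotype control (clone LTF-2), from 2 h after injury and then every 2 weeks. The 4 groups were YTBI_Isotype, YTBI_aCD49d, ATBI_Isotype and ATBI_aCD49d, and all 4 received the injury. Aged mice came from colonies of the National Institute on Aging and young mice from Jackson Laboratory, so age cannot be told apart from source. Brains were taken 2 months after TBI, CD45+ cells, the leukocytes, were sorted, and cells of 2 mice were pooled into 1 library per group. With 1 library per group there is no spread between mice, so differences between groups cannot be told apart from differences between mice. Exact (Clopper-Pearson) 95% intervals are given for shares. They cover counting error only, treat cells and clonotypes as independent draws, and PCR and clonal growth can make the true error larger.

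A beta chain is assembled in the thymus when a V, a D and a J segment are cut next to their recombination signals and joined. The joint is the third complementarity-determining region (CDR3), the part of the receptor that lies over the peptide, and bases trimmed from the ends or added between them make it differ from cell to cell. A clonotype is the set of cells with the same receptor chains, and one with many cells has grown from a single ancestor. The mouse beta locus carries most V segments upstream of its D, J and C genes, and these join by deleting what lies between. TRBV31 is the exception, since it lies beyond the last constant gene and points the other way, and it joins by inversion.

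In the mm10 (GRCm38) genome Trbv31 occupies chr6:41557691-41558452 on the reverse strand, 9338 bp beyond the end of Trbc2. It was 1 of the 35 annotated TRBV genes, and the 1 on the reverse strand. Its last 14 coding bases, chr6:41557693-41557706, encode the start of the CDR3 (residues C, A, W and S and the first bases of the next codon) and are followed by the heptamer of the recombination signal. The germline end, shown because each CDR3 below starts from it, reads as follows in RefSeq's GRCm38.p6, with the heptamer in capitals (the whole stretch is chr6:41557686-41557706, reverse strand).
TRBV31 germline end: tgtgcctggagtctCACACTG

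The 7 TRBV31 clones named here, the 3 with most cells in each library among those with at least 2 cells, had the CDR3 nucleotide sequences below, with capitals for bases that continue neither the germline V nor the germline J segment. The numbers are those the files give to the clonotypes of each library.
YTBI_aCD49d clonotype 1 (33 cells, TRBJ2-4): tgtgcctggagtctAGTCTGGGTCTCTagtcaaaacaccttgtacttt
YTBI_aCD49d clonotype 20 (2 cells, TRBJ1-6): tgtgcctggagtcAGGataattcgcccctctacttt
YTBI_aCD49d clonotype 27 (2 cells, TRBJ2-5): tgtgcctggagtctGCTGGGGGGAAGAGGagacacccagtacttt
ATBI_Isotype clonotype 10 (8 cells, TRBJ2-7): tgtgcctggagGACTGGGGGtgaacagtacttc
ATBI_Isotype clonotype 18 (4 cells, TRBJ1-5): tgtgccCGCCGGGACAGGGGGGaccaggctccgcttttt
ATBI_Isotype clonotype 19 (4 cells, TRBJ1-3): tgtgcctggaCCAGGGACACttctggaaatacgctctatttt
ATBI_aCD49d clonotype 43 (2 cells, TRBJ2-3): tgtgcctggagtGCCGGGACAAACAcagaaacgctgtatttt

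YTBI_Isotype had no TRBV31 clone of 2 or more cells. Its 4 TRBV31 receptors, each from 1 cell, are shown because they are all that this library held.
YTBI_Isotype clonotype 21 (TRBJ2-7): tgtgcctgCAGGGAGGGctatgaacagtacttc
YTBI_Isotype clonotype 23 (TRBJ2-5): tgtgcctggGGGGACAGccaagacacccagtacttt
YTBI_Isotype clonotype 58 (TRBJ2-2): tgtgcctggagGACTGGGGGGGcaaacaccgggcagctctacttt
YTBI_Isotype clonotype 62 (TRBJ2-1): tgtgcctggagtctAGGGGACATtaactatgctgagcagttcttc

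TRBV31 was frequent in YTBI_aCD49d and ATBI_Isotype and infrequent in YTBI_Isotype and ATBI_aCD49d. Of the clonotypes with a beta chain, it was used by 4 of 220 in YTBI_Isotype (1.82%, 95% interval 0.498 to 4.59), 30 of 453 in YTBI_aCD49d (6.62%, 4.51 to 9.32), 28 of 449 in ATBI_Isotype (6.24%, 4.18 to 8.89) and 10 of 527 in ATBI_aCD49d (1.90%, 0.914 to 3.46). Among the 22 TRBV calls it ranked 18th, 5th, 6th and 19th by clonotypes in these libraries. Counted by cells the shares were 4 of 252 (1.59%, 0.434 to 4.01), 61 of 562 (10.9%, 8.40 to 13.7), 44 of 1004 (4.38%, 3.20 to 5.84) and 11 of 1102 (0.998%, 0.499 to 1.78), in the same order of libraries. Counted by the UMIs (RNA molecules) of beta chains they were 0.748%, 8.81%, 4.08% and 0.471%.

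**Figure D1:**
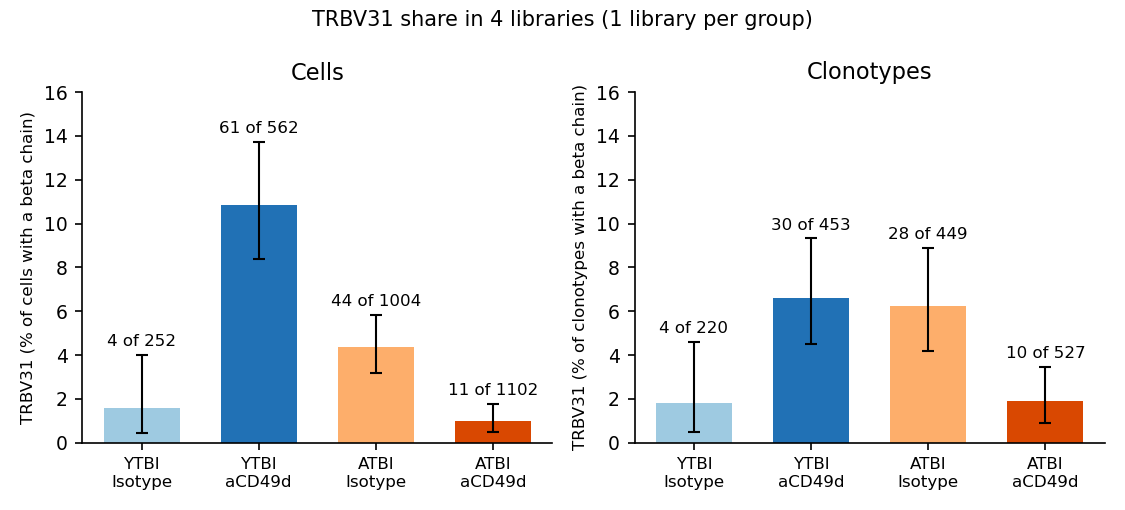
Share of cells (left) and of clonotypes (right) with a TRBV31 beta chain, in percent of those with any beta chain, for the 4 libraries, with exact 95% intervals as bars and the counts above them. YTBI_aCD49d and ATBI_Isotype are high at 6.62% and 6.24% of clonotypes, and YTBI_Isotype and ATBI_aCD49d are low at 1.82% and 1.90%.

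Set against the aCD49d library of its age, the isotype library was lower in TRBV31 in young mice and higher in aged mice. Isotype minus aCD49d was -4.80 percentage points of clonotypes in the young pair (Newcombe 95% interval -7.81 to -1.32) and 4.34 points in the aged pair (1.76 to 7.17). By cells these differences were -9.27 points (-12.4 to -5.82) and 3.38 points (1.97 to 4.92). For background, an interval that excluded 0 was seen for 3 of the 22 TRBV calls by clonotypes (13.6%) and 2 by cells (9.09%) in the young pair. In the aged pair it was seen for 2 by clonotypes (9.09%) and 12 by cells (54.5%). TRBV31 is among each of these, and nothing is read from that, since the segment was chosen on these contrasts.

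Comparisons by age within a treatment are also comparisons by source of the mice. Under isotype, ATBI_Isotype was 4.42 points of clonotypes above YTBI_Isotype (0.969 to 7.38). Under aCD49d, aged minus young was -4.72 points (ATBI_aCD49d minus YTBI_aCD49d, -7.60 to -2.10). Intervals that excluded 0 numbered 3 of 22 calls (13.6%) and 2 of 22 (9.09%) in these comparisons. YTBI_aCD49d and ATBI_Isotype lay close to each other by clonotypes, as did YTBI_Isotype and ATBI_aCD49d, and within each of these pairs the intervals overlapped. By cells the intervals of YTBI_aCD49d (8.40 to 13.7) and ATBI_Isotype (3.20 to 5.84) did not overlap. Those of YTBI_Isotype (0.434 to 4.01) and ATBI_aCD49d (0.499 to 1.78) did.

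**Figure D2:**
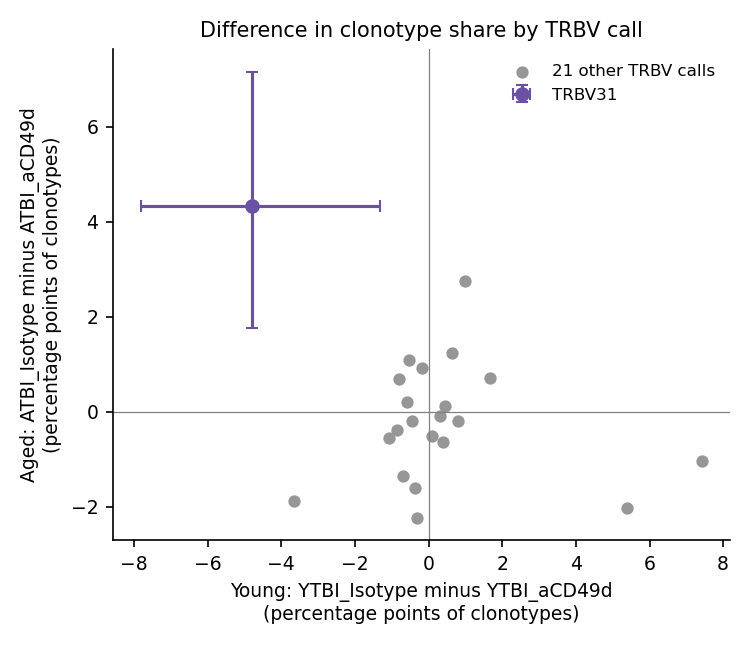
Difference in clonotype share, isotype minus aCD49d in percentage points, in young (horizontal axis) and aged mice (vertical axis) for each of the 22 TRBV calls, with Newcombe 95% intervals for TRBV31. TRBV31 sits at -4.80 in young and 4.34 in aged mice, and the other 21 calls are grey.

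Each clone counts once in the shares by clonotypes. Among clonotypes with only 1 cell, a set chosen after the values were seen, TRBV31 made up 1.98% in YTBI_Isotype and 2.02% in ATBI_aCD49d, compared with 6.52% in YTBI_aCD49d and 6.06% in ATBI_Isotype. By cells, a single clone carried much of the YTBI_aCD49d value: without it the share was 5.83% instead of 10.9%, and the young difference was -4.63 points (-7.16 to -1.72).

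The number of transcripts counted per TRBV31 chain also differed between the libraries. A unique molecular identifier (UMI) tags each captured transcript, and the median count per TRBV31 chain was 6.5 in YTBI_Isotype and 4 in ATBI_aCD49d, where the other beta chains had 11 and 10. It was 7 in both YTBI_aCD49d and ATBI_Isotype, where the other beta chains had 9 and 7. The gap was thus widest in the libraries where TRBV31 was infrequent, which hold 4 and 11 such chains. In ATBI_aCD49d TRBV31 had the lowest median of 21 segments with at least 4 chains. Whether this has a part in the shares was not tested. Of the 120 chains, 1 in YTBI_Isotype and 1 in ATBI_aCD49d rested on a single UMI, and no TRBV31 cell had a cell barcode that another library held too.

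The other segments varied less or in another order. The 3 segments most like TRBV31, by the distance between clonotype shares scaled to each segment's own mean over the 4 libraries, were TRBV20 (distance 0.948), TRBV12-2 (0.972) and TRBV26 (1.05). TRBV31 stood at 0.439, 1.60, 1.50 and 0.458 of its own mean in YTBI_Isotype, YTBI_aCD49d, ATBI_Isotype and ATBI_aCD49d. TRBV20 stayed between 0.884 and 1.12 of its mean. TRBV12-2 was at 0.731, 0.947, 1.25 and 1.07, so that like TRBV31 it was lowest in YTBI_Isotype. It was highest in ATBI_Isotype and was not low in ATBI_aCD49d. These values leave out the joint call TRBV12-2+TRBV13-2, which held 213 clonotypes beside 64 for TRBV12-2. The joint call was at 1.44, 0.908, 0.787 and 0.862 of its mean, highest in YTBI_Isotype. The order given for TRBV12-2 thus holds for chains called TRBV12-2 alone. TRBV26 was at 1.17, 0.851, 1.43 and 0.549, so that it was high in ATBI_Isotype and low in ATBI_aCD49d but not high in YTBI_aCD49d. With 4 libraries this is a description of order only.

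Most TRBV31 clonotypes were seen once. Of the 72 TRBV31 clonotypes, 62 were seen in 1 cell and 10 in 2 or more, and these 10 held 58 of the 120 TRBV31 cells. Such clonotypes numbered 0 of 4 in YTBI_Isotype (a count of 0 allows up to 75%), 3 of 30 in YTBI_aCD49d (10%, 2.11 to 26.5), 6 of 28 in ATBI_Isotype (21.4%, 8.30 to 41.0) and 1 of 10 in ATBI_aCD49d (10%, 0.253 to 44.5). The clonotypes of other segments with 2 or more cells made up 8.33%, 8.51%, 19% and 15.5% in the same order, each within the TRBV31 interval, and the TRBV31 intervals of the libraries overlapped.

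By cells, 34 of 61 TRBV31 cells of YTBI_aCD49d belonged to such a clone (55.7%, 42.4 to 68.5), compared with 114 of 501 cells of other segments (22.8%, 19.2 to 26.7). In ATBI_Isotype these were 22 of 44 (50%, 34.6 to 65.4) and 619 of 960 (64.5%, 61.4 to 67.5). In ATBI_aCD49d they were 2 of 11 (18.2%, 2.28 to 51.8) and 654 of 1091 (59.9%, 57.0 to 62.9). The YTBI_aCD49d value came from 1 clone: without it, 12.9% of the remaining TRBV31 cells were in a clone of 2 or more. The libraries held different numbers of TRBV31 cells. Expected at 4 TRBV31 cells per library, the number in YTBI_Isotype, the clonal share of YTBI_aCD49d was 43.0%, that of ATBI_Isotype was 12% and that of ATBI_aCD49d was 5.45%. The largest TRBV31 clone held 30 of the 61 TRBV31 cells of YTBI_aCD49d (49.2%, 36.1 to 62.3), 8 of 44 in ATBI_Isotype (18.2%, 8.19 to 32.7) and 2 of 11 in ATBI_aCD49d.

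**Figure D3:**
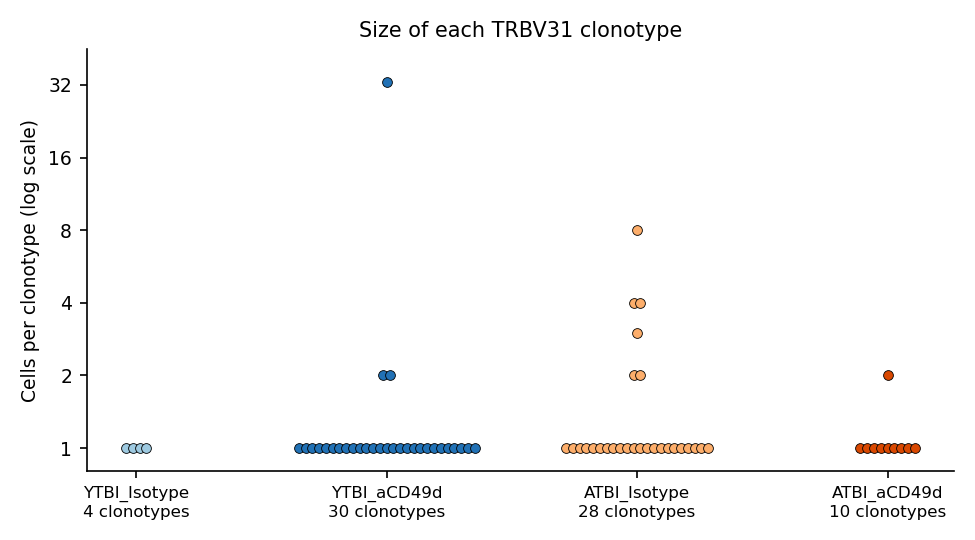
Cells per TRBV31 clonotype (vertical log axis) in the 4 libraries, with 1 point per clonotype. One clonotype of YTBI_aCD49d reaches 33 cells, the largest of ATBI_Isotype has 8, that of ATBI_aCD49d has 2, and the 4 clonotypes of YTBI_Isotype have 1 cell each.

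The large clone, clonotype 1 of YTBI_aCD49d, was the largest of its library with 33 of 577 cells (5.72%). A TRBV31 chain was read in 30 of these cells and an alpha chain in 21, of which 18 had both. Its beta chain uses TRBJ2-4 and TRBC2 and keeps all 14 germline V bases and all 21 germline bases of the TRBJ2-4 part of the CDR3, with 13 bases between them and a CDR3 of 16 residues. Its alpha chain uses TRAV9-2 and TRAJ31 with the CDR3 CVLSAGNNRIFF. The beta chain was read from 3 to 18 UMIs per cell, with a median of 7. It was the 1 TRBV31 clonotype among the 22 clonotypes of any segment with 10 or more cells in the 4 libraries.

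The other named clones were small. In YTBI_aCD49d, clonotype 20 (TRBJ1-6, CDR3 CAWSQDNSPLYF) was read with the alpha chain TRAV4D-4 and TRAJ26 in both cells and with a second alpha chain, TRAV9D-3 and TRAJ31, in 1. Clonotype 27 (TRBJ2-5) had TRAV4-3 and TRAJ31 in both of its cells. In ATBI_Isotype, clonotype 10 (TRBJ2-7, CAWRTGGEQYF) had 8 cells, 0.781% of the library, with TRAV7N-4 and TRAJ31 in 6. Clonotype 18 (TRBJ1-5) keeps 6 germline V bases. A TRBV31 chain was read in 3 of its 4 cells and TRAV13N-4 and TRAJ21 in 3, of which 2 had both. Clonotype 19 (TRBJ1-3) had TRAV14D-1 and TRAJ26 in 1 of 4. In ATBI_aCD49d, clonotype 43 (TRBJ2-3, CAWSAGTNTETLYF) had TRAV15D-2-DV6D-2 and TRAJ23 in both cells.

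One receptor protein was found in 2 TRBV31 clonotypes of ATBI_Isotype that differed in nucleotides in both chains. Clonotypes 10 (8 cells) and 91 (1 cell) share TRBJ2-7 with the beta CDR3 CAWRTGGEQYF, and TRAV7N-4 and TRAJ31 with the alpha CDR3 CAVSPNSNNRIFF, and each chain differs by 1 base that leaves the residue as it is. The 4 sequences are shown because the deposited clonotypes, which rest on nucleotides, keep them apart. Capitals mark the differing base.
Clonotype 10 beta: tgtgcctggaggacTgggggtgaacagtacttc
Clonotype 91 beta: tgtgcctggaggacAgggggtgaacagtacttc
Clonotype 10 alpha: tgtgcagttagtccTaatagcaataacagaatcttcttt
Clonotype 91 alpha: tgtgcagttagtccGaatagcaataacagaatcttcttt

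The chains of clonotype 10 were read from 4 to 16 UMIs per cell on the beta side, and the beta chain of clonotype 91 from 10 UMIs. Over the 4 libraries, 54 TRBV31 clonotypes with both chains entered this comparison and coded for 53 distinct receptor proteins. That is fewer than the 57 TRBV31 clonotypes with an alpha chain. Clonotypes with a second beta chain may have been counted under their other segment. The clonotypes counted here under other segments may thus include some that also have a TRBV31 chain. Leaving out those with the invariant TRAV11 and TRAJ18 alpha chain, 1169 of them had both chains and coded for 1165 proteins. In that set 4 proteins were found in more than 1 clonotype of a library, and 0 of these differed in nucleotides in both chains. The pair was singled out after its sequences were seen.

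A second set of TRBV31 clonotypes of ATBI_Isotype shared a beta CDR3 protein but not the alpha chain. Clonotypes 125, 158 and 160, of 1 cell each, have TRBJ1-2 and the CDR3 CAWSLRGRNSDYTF. The beta nucleotides of 158 and 160 are identical, with TRAV16N and TRAJ43 in the one and TRAV16N and TRAJ45 in the other, while 125 differs from them by 2 bases and no alpha chain was read. Their beta CDR3 are shown with the differing bases in capitals.
Clonotype 125: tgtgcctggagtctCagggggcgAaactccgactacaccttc
Clonotype 158: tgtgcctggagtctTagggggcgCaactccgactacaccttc

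Within ATBI_Isotype, 2 of 25 distinct TRBV31 CDR3 proteins were thus coded by more than 1 nucleotide sequence, compared with 1 of 429 for other segments. In the other libraries none of 4, 30 and 10 TRBV31 CDR3 proteins was. No TRBV31 CDR3, in residues or in nucleotides, was found in more than 1 library. Sharing was rare in the other segments too, with 0 or 1 nucleotide CDR3 and 1 to 5 residue CDR3 in common per pair of libraries.

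The J segments of TRBV31 chains covered all 12 TRBJ segments seen in the data, with TRBJ2-7 (11 of 72 clonotypes), TRBJ1-4 and TRBJ2-4 (10 each), TRBJ2-5 (9) and TRBJ2-1 (8) in front. TRBJ2-3 followed with 6, TRBJ1-1 and TRBJ1-2 with 5 each, TRBJ1-5 with 4, TRBJ1-6 with 2, and TRBJ1-3 and TRBJ2-2 with 1 each. TRBJ1-4 made up 13.9% of TRBV31 clonotypes (6.87 to 24.1) and 8.15% of the other beta chains (6.87 to 9.59), and TRBJ2-7 15.3% (7.88 to 25.7) and 19.5% (17.6 to 21.5). For these and the other TRBJ segments the TRBV31 interval overlapped that of the other chains. By cells TRBJ2-4 led with 39 of 120, of which the large clone gave 30.

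**Figure D4:**
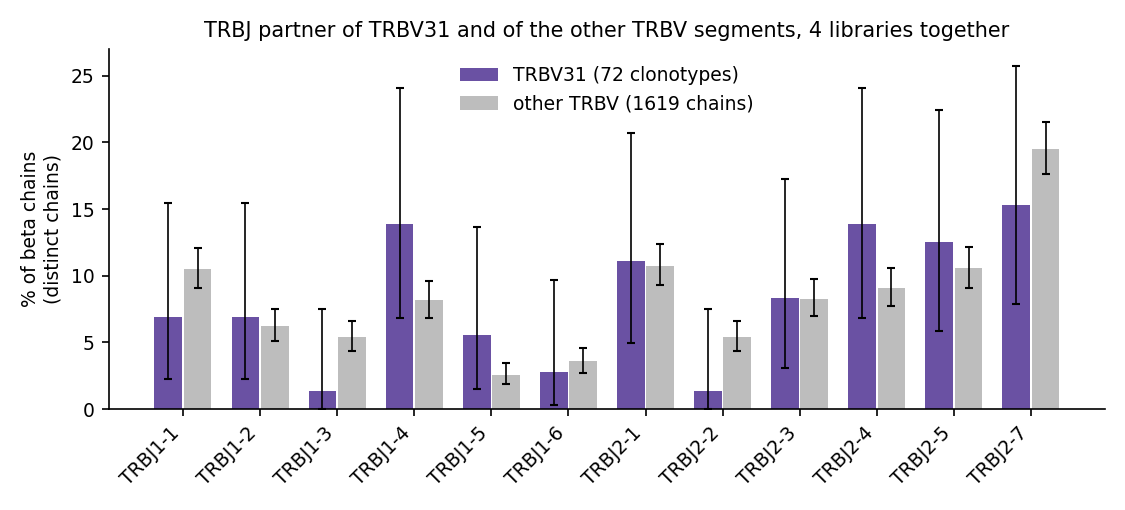
Share of each TRBJ segment among 72 TRBV31 clonotypes (purple) and 1619 beta chains of other segments, each distinct chain of a clonotype counted once (grey), in percent with exact 95% intervals, over the 4 libraries. TRBJ2-7 is at 15.3% and 19.5%, TRBJ1-4 at 13.9% and 8.15%, and the intervals of the pairs overlap throughout.

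The TRBJ2 cluster, the one that lies nearer to TRBV31 on the chromosome, was used by 45 of 72 TRBV31 clonotypes (62.5%, 50.3 to 73.6) and by 63.6% of other beta chains (61.2 to 65.9). By library the TRBV31 share was 4 of 4 in YTBI_Isotype (39.8 to 100%), 22 of 30 in YTBI_aCD49d (73.3%, 54.1 to 87.7), 13 of 28 in ATBI_Isotype (46.4%, 27.5 to 66.1) and 6 of 10 in ATBI_aCD49d (60%, 26.2 to 87.8). The other chains were at 69.5%, 67.4%, 58.9% and 61.8%. The libraries frequent in TRBV31 thus differed in their TRBJ2 share, with overlapping intervals. Every TRBJ1 clonotype (27) was read with TRBC1 and every TRBJ2 clonotype (45) with TRBC2. A D segment was called in 16 of 72 clonotypes (22.2%, 13.3 to 33.6) and in 24.9% of other chains. TRBD1 was called with both J clusters (4 and 7 clonotypes) and TRBD2, which lies downstream of the TRBJ1 cluster, with TRBJ2 alone (5).

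Within the V segment all 120 chains were alike. The 3 framework regions and both germline-coded loops each had 1 nucleotide sequence, with GKSSPN as CDR1 and SITVG as CDR2. The members thus differ in the CDR3, in the J and C genes described above and in the alpha chain. The CDR3 began with C, A and W in 68 of 72 clonotypes and with CAWS, the residues the germline codes for, in 54 (75%, 63.4 to 84.5). Starts other than CAWS were CAWR (7), CAWG (4), CAWT (2) and 1 each of CAWA, CACR, CASD, CARR and CAGN. Leucine, which the last germline bases CT encode with any base after them, was the fifth residue in 29 of the 54, followed by proline in 10. CAWS was the start of 1 of 4 clonotypes in YTBI_Isotype, 25 of 30 in YTBI_aCD49d (83.3%, 65.3 to 94.4), 19 of 28 in ATBI_Isotype (67.9%, 47.6 to 84.1) and 9 of 10 in ATBI_aCD49d (90%, 55.5 to 99.7).

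The V end was trimmed little. All 14 germline bases were kept in 28 of 72 TRBV31 clonotypes (38.9%, 27.6 to 51.1), compared with 291 of 1338 chains of other segments whose germline end could be read (21.7%, 19.6 to 24.1). On average 1.79 ± 2.06 V bases (SD, n = 72 clonotypes) were missing from TRBV31 chains and 2.63 ± 2.14 (n = 1338) from the others. Segments differ in this: TRBV31 was 4th of 20, after TRBV5 (48.9%), TRBV2 (47.9%) and TRBV13-2 (39.5%). The TRBV13-2 value leaves out chains under the joint call TRBV12-2+TRBV13-2, which had no germline V end here. By library the whole end was kept in 1 of 4, 14 of 30 (46.7%), 9 of 28 (32.1%) and 4 of 10 TRBV31 clonotypes of YTBI_Isotype, YTBI_aCD49d, ATBI_Isotype and ATBI_aCD49d. An added base that matches the germline by chance counts as kept here.

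Bases that mirror the end of an untrimmed segment can be left when the hairpin made at the cut opens off its tip. Bases of this sequence followed the whole V end in some clonotypes. Added or D bases that match it by chance are counted here too. The bases AG, the mirror image of the last bases of TRBV31, came next in 7 of the 28 (25%). These were 6 of the 14 whole ends of YTBI_aCD49d, the large clone among them (42.9%, 17.7 to 71.1), and the 1 of YTBI_Isotype, in clonotype 62. They were 0 of 9 whole ends in ATBI_Isotype and 0 of 4 in ATBI_aCD49d, which allows up to 33.3% and 75%. In the other segments such a pair followed 63 of 291 whole ends (21.6%). The J end of TRBV31 chains lacked 2.50 ± 2.44 bases (SD, n = 72) and that of the other chains 2.85 ± 2.52, and 10.4 ± 3.74 and 10.1 ± 3.92 bases lay between.

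**Figure D5:**
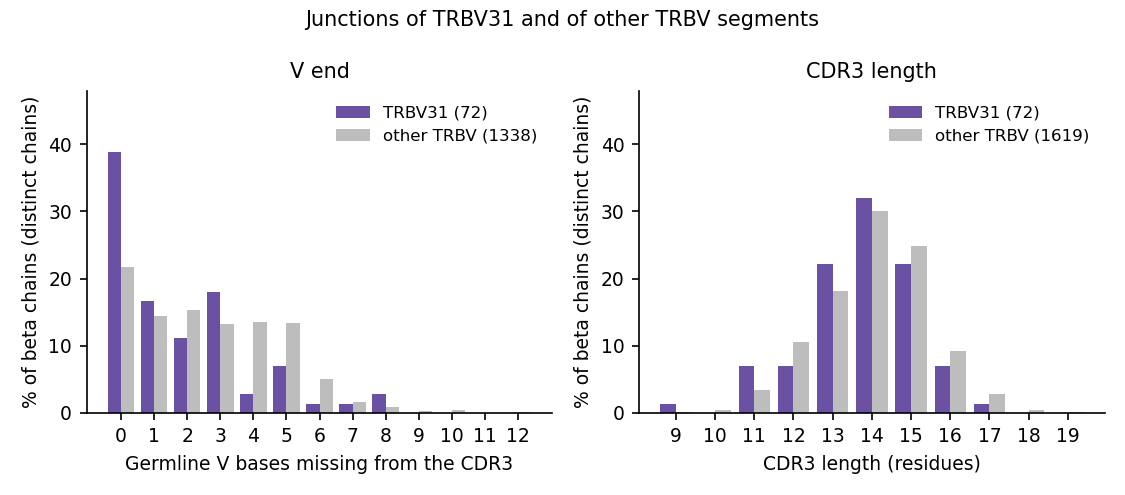
Germline V bases missing from the CDR3 (left) and CDR3 length in residues (right), in percent of beta chains, each distinct chain of a clonotype counted once, for TRBV31 (purple) and other segments (grey). The whole V end is kept in 38.9% of TRBV31 chains and 21.7% of the others, and both lengths centre on 14 residues.

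The CDR3 of TRBV31 clonotypes was 13.8 ± 1.44 residues long (SD, n = 72, range 9 to 17), and that of other chains 14.02 ± 1.41 (n = 1619). The means were 13.2 ± 2.06 (n = 4), 14 ± 1.20 (n = 30), 13.9 ± 1.43 (n = 28) and 13 ± 1.76 (n = 10) in YTBI_Isotype, YTBI_aCD49d, ATBI_Isotype and ATBI_aCD49d. These differ by less than the spread within a library. Ordered from the shortest, TRBV31 was 8th of the 22 calls.

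An alpha chain was read in 87 of 120 TRBV31 cells (72.5%, 63.6 to 80.3) and in 76.6% of other cells (75.0 to 78.2). The TRBV31 shares were 4 of 4, 45 of 61 (73.8%), 29 of 44 (65.9%) and 9 of 11 (81.8%) in the order of libraries above, and the other cells were at 81.9%, 78.2%, 67.0% and 83.1%. At least 2 alpha chains were read in 6 TRBV31 cells (5%, 1.86 to 10.6) and in 4.11% of other cells. For 57 TRBV31 clonotypes with an alpha chain, 15 of the 19 TRAV families and 28 of the 43 TRAJ segments were seen.

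The leading TRAV families were TRAV6 with 11 of 57 clonotypes (19.3%, 10.0 to 31.9), TRAV4 with 9 (15.8%, 7.48 to 27.9) and TRAV9 with 7 (12.3%, 5.08 to 23.7). Among 1276 other clonotypes with an alpha chain they made up 12.1% (10.3 to 13.98), 6.5% (5.21 to 8.0) and 8.78% (7.28 to 10.5). TRAV4 was used by 3 of the 4 clonotypes of YTBI_Isotype and by 5 in YTBI_aCD49d, 1 in ATBI_Isotype and 0 in ATBI_aCD49d. TRAV6 was seen in 0, 5, 4 and 2 clonotypes.

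Among the TRAJ segments TRAJ31 led with 9 of 57 (15.8%, 7.48 to 27.9), and TRAJ37 with 5 and TRAJ23 and TRAJ39 with 4 each followed. TRAJ31 made up 4.55% of the other clonotypes (3.47 to 5.84), TRAJ37 3.13%, TRAJ23 4.86% and TRAJ39 1.88%. TRAJ31 was read in 1 of 4 TRBV31 clonotypes with an alpha chain in YTBI_Isotype, 4 of 26 in YTBI_aCD49d (15.4%, 4.36 to 34.9), 4 of 19 in ATBI_Isotype (21.1%, 6.05 to 45.6) and 0 of 8 in ATBI_aCD49d, which allows up to 37.5%. The other clonotypes were at 3.91%, 6.21%, 3.83% and 4.04%. TRAJ31 was singled out because it led, so the difference is a description.

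By clone size, TRAJ31 was read in 4 of 10 TRBV31 clonotypes of 2 or more cells (40%, 12.2 to 73.8) and 5 of 47 of 1 cell (10.6%, 3.55 to 23.1). Of these 4 clones, 3 were in YTBI_aCD49d, where it was read in 3 of 3 such clones and 1 of 23 single-cell clonotypes (4.35%). In ATBI_Isotype the order was the other way, with 1 of 6 clones (16.7%) and 3 of 13 single-cell clonotypes (23.1%), and ATBI_aCD49d had 0 of 1 clones. In other segments it was read in 5 of 201 clonotypes of 2 or more cells (2.49%, 0.813 to 5.71) and in 4.93% of those of 1 cell (3.71 to 6.40). The largest TRBV31 clones of YTBI_aCD49d and of ATBI_Isotype, described above, both carry it, with different TRAV, TRBJ and CDR3. Of the 9 clonotypes, clonotypes 10 and 91 of ATBI_Isotype code for 1 protein, and in clonotype 20 of YTBI_aCD49d TRAJ31 belongs to the second alpha chain of 1 cell.

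The invariant alpha chains of innate-like T cells were rarely read in TRBV31 cells. An alpha chain was read in 87 of the 120 TRBV31 cells and 2145 of the 2800 other cells. A cell without one cannot show an invariant chain. The TRAV11 and TRAJ18 alpha chain that marks invariant natural killer T (iNKT) cells was read in 1 of all 120 TRBV31 cells and 111 of all 2800 others. The 1 was a single-cell clonotype of YTBI_aCD49d with TRBJ2-4. Among clonotypes with an alpha chain, TRAV11 was used by 1 of 57 with TRBV31 (1.75%, 0.0444 to 9.39) and 112 of 1276 others (8.78%, 7.28 to 10.5). The TRAV1 and TRAJ33 chain of mucosal-associated invariant T (MAIT) cells was read in 0 of all 120 TRBV31 cells. In the others it was read in 3 of all 2800. The limit for 0 of 120, 2.5%, also counts cells without an alpha chain. It is thus too low for the 87 TRBV31 cells that had one. Expression was not measured in these files, so TRBV31 cells were not assigned to CD4+ or CD8+ T cells.

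A second productive beta chain was read in 3 of 120 TRBV31 cells (2.5%, 0.519 to 7.13) and in 1.57% of other cells (1.14 to 2.10). The partners were TRBV29 in YTBI_aCD49d, with 6 UMIs beside 12 for TRBV31, and TRBV19 (11 beside 3) and TRBV12-1 (15 beside 9) in ATBI_Isotype. Each of these cells had 1 alpha chain and was the single cell of its clonotype. A doublet of 2 cells and a cell with both beta alleles rearranged cannot be told apart here. YTBI_Isotype with 4 TRBV31 cells and ATBI_aCD49d with 11 had none, which allows up to 75% and 27.3%.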

How the data were processed

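Of the 8 samples of the series, the 4 single-cell T cell receptor libraries were used, and the 4 single-cell expression libraries were not analysed here. The deposited tables hold counts of reads and UMIs for each assembled chain of each cell, which the authors made with Cell Ranger (version 7.2.0 per the submitters' processing notes) on mm10, and per clonotype the count of cells and its fraction of the library as deposited. About 5000 cells were loaded per library. The libraries held 262 (YTBI_Isotype), 577 (YTBI_aCD49d), 1024 (ATBI_Isotype) and 1123 (ATBI_aCD49d) cells with a receptor, and 4473, 7483, 10419 and 18415 receptor UMIs. The chain tables hold 0 chains that are not productive, full-length and of high confidence. A further filter on the transcriptome in the study was not repeated.

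Each deposited clonotype was counted once, or each cell once, as stated, and a clone of 2 or more cells was called clonal. Shares have exact Clopper-Pearson 95% intervals (scipy 1.17.1) and differences Newcombe intervals made from them, and a share of 0 is given with the limit that 3 counts allow. No test between groups was possible with 1 library each. CDR3 nucleotides were compared with germline V and J ends read from the RefSeq GRCm38.p6 genome at GENCODE vM21 positions, counting the bases that match without a gap from either end. TRBV10 and the joint call TRBV12-2+TRBV13-2 had no germline V end here and were left out of that comparison. Near-identical copies of TRAV genes (D and N forms) can be called for each other. The interval and junction functions were tested on simulated data.

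The clones named are the 3 TRBV31 clonotypes with most cells per library, among those with at least 2 cells and with ties by clonotype number, and any with 10 or more. The TRAV families and TRAJ segments named are the 3 with most TRBV31 clonotypes, with ties by name, and TRAJ39, tied for the third place, is given too. Where a clonotype holds 2 different beta chains, each is counted in the J, C and junction values. The TRBV segments named for likeness are the 3 nearest among those with at least 10 clonotypes. The members and these rules were chosen with earlier results of these data known. The alternatives were cells with both chains, no possible doublets, at least 2 UMIs per chain, other clonotype definitions, weights and denominators, and leaving out the largest clone.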

Additional observations from a re-analysis of the deposited data

Results flagged for a closer look

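The TRBV31 share differed between the isotype and the aCD49d library with one sign in young and the other in aged mice. Isotype minus aCD49d was -4.80 percentage points of clonotypes in young mice (YTBI_Isotype and YTBI_aCD49d) and 4.34 points in aged mice (ATBI_Isotype and ATBI_aCD49d). By cells it was -9.27 and 3.38 points. Each age gives a single difference between 2 libraries, and this contrast between young and aged was not put to a test.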

How the results depend on the processing

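The direction of the isotype minus aCD49d difference held under each alternative run. By clonotypes it ranged from -5.31 to -4.54 points in young and from 3.64 to 4.61 points in aged mice, and by cells from -9.77 to -4.60 and from 2.80 to 3.61. These are the contrasts on which the segment was chosen, so this supports nothing about them. Of 204 values recomputed, 192 stayed within the interval of the reported one and 12 left it. Without the largest clone and the largest TRBV31 clone of each library, YTBI_aCD49d had 5.83% TRBV31 cells and a young difference of -4.60 points. Leaving out the largest TRBV31 clone alone, an alternative chosen after seeing the data, gave 5.83% and -4.63 points. By beta UMIs YTBI_Isotype had 0.748% and ATBI_aCD49d 0.471% TRBV31. The clonal share of TRBV31 cells without the largest TRBV31 clone was 12.9% in YTBI_aCD49d and 0% in ATBI_aCD49d, and with at least 3 cells per clone 0% in ATBI_aCD49d. Expected at 4 TRBV31 cells per library it was 12% in ATBI_Isotype, against 43.0% for YTBI_aCD49d and 5.45% for ATBI_aCD49d. The alpha chain share in YTBI_aCD49d was 60.7% with at least 2 UMIs per chain and 86.7% by clonotypes. The mean CDR3 length there was 14.9 residues by cells, where the large clone weighs 30 cells. Joining clonotypes of the same receptor protein and using only clonotypes of 1 cell were also chosen after seeing the data. No paired analysis was possible because the groups hold 1 library apiece and share no mice. Shares in YTBI_Isotype rest on 4 TRBV31 cells and those in ATBI_aCD49d on 11, so their intervals are wide.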
